A study of Mus musculus with 8 samples.

Results

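Mature mmu-miR-199a-5p, mmu-miR-199a-3p, mmu-miR-199b-5p and mmu-miR-214-3p were followed in mouse skin. They were taken by their exact names and are 4 of the 1881 miRNAs on the array. All 4 were detected on all 8 arrays and were among the 222 miRNAs tested, so none was lost to the filter on dim signals. The NcstnΔKC group (4 samples) came from male Ncstn flx/flx; Krt14 CreER+/- mice given tamoxifen by gavage from the age of 8 weeks, at 20 mg/kg per day on 5 days running, with further doses at intervals of 10 days. Normal skin (4 samples) came from males of the same genotype that received corn oil, and skin was taken from both groups at 16 weeks. The product of Ncstn, nicastrin, belongs to γ-secretase, an intramembrane protease needed for Notch signalling. The Krt14 promoter directs the tamoxifen-activated Cre to basal keratinocytes. Tamoxifen and loss of Ncstn therefore differ together between the groups, and mesenchymal cells are not the cells in which this promoter is active. The deletion could not be checked, because Ncstn mRNA was not measured. The labels do not say that each sample is a separate mouse, so p-values reflect only how far these samples scatter, and that scatter may be technical.

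The arrays differed between the groups in more than treatment. All 8 lay on 1 slide, with the NcstnΔKC samples in its first row and the normal samples in its second, so group and slide row cannot be told apart. Detected miRNAs numbered 217 ± 17.2 in NcstnΔKC skin and 252 ± 17.2 in normal skin (mean ± SD, n = 4 each). The 75th percentile of the signal, to which each array was scaled, was 1053 ± 98.3 intensity units in NcstnΔKC skin and 1259 ± 44.6 in normal skin. After scaling, the median difference over the tested miRNAs was -0.23 on the log2 scale. Of the keratinocyte markers miR-203-3p, miR-205-5p and the miR-200 family, 7 of 7 were detected on all 8 arrays. In bulk skin this shows only that epithelium was present, and not its share of the tissue.

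A miRNA is cut from a hairpin precursor, and either arm (5p or 3p) can be loaded into an Argonaute protein. Bases 2 to 8 of the loaded strand, the seed, largely set which mRNAs it represses. The miR-199 and miR-214 hairpins lie antisense to genes of the dynamin family, which encode membrane-cutting GTPases. In mice, Mir199a-2 and Mir214 are both processed from the long noncoding RNA Dnm3os, a transcript of mesenchymal tissues that the transcription factor Twist1 is known to activate. In human lung fibroblasts miR-199a-5p represses caveolin-1, and both miR-199a-5p and miR-214-3p are widely studied in fibrosis.

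The mature strands are shown because the seeds group these miRNAs, and capitals mark the seed. They come from RefSeq (GRCm38.p6), in which 3 of the 4 miRNAs had a mature entry.
miR-199a-5p: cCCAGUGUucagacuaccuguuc
miR-199a-3p: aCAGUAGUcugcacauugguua
miR-214-3p: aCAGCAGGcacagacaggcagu
The 3 seeds differ from one another. In this table miR-214-3p shares its seed with miR-761, which was detected on 0 of 8 arrays. The miR-199a-3p sequence is also that of miR-199b-3p, so the array signal named miR-199a-3p adds up RNA from 3 hairpins on 3 chromosomes. The miR-199a-5p signal adds up RNA from Mir199a-2 and Mir199a-1.

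The hairpins sit at 4 places. Mir199a-2 gives miR-199a-5p at chr1:162217844-162217866 and miR-199a-3p at chr1:162217883-162217904, both on the plus strand. Mir214 gives miR-214-3p at chr1:162223438-162223459 on the same strand. Both hairpins lie within Dnm3os (chr1:162217623-162225550), which itself lies within the span of Dnm3 on the minus strand. From the start of Dnm3os to Mir199a-2 is 191 bases, and 5444 bases separate the end of Mir199a-2 from the start of Mir214. Mir199a-1 gives the same mature strands from chr9:21496495-21496564 on the minus strand, within the span of the plus-strand gene Dnm2. Mir199b lies at chr2:32318460-32318569 on the plus strand, within the span of the minus-strand gene Dnm1.

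The precursor of miR-199b-5p and the probes for both 5p strands are shown because they differ at 1 base, on which the array's separation of these miRNAs rests. In the Mir199b hairpin, capitals mark the stretch complementary to the longer miR-199b-5p probe. In the probes, the capital is the base that faces position 10 of miR-199a-5p, counted from its 5′ end.
Mir199b hairpin: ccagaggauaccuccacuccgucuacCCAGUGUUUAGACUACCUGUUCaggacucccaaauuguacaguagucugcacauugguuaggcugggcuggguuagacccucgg
miR-199a-5p probe of 18 bases: gaacaggtagtctGaaca
miR-199a-5p probe of 19 bases: gaacaggtagtctGaacac
miR-199b-5p probe of 21 bases: gaacaggtagtctAaacactg
miR-199b-5p probe of 22 bases: gaacaggtagtctAaacactgg
Over the 22 bases compared, the marked stretch of the Mir199b hairpin differs from miR-199a-5p by C10U alone. Each miR-199b-5p probe therefore has 1 mismatch to miR-199a-5p, and each miR-199a-5p probe has 1 mismatch to the marked stretch. How far either strand binds to the probes of the other was not tested.

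miR-214-3p, miR-199a-5p and miR-199a-3p, whose hairpins include those within Dnm3os, were higher in NcstnΔKC skin, and miR-199b-5p was not called. Values are log2 of the scaled intensity, where 0 is the 75th percentile of each array. Levels of different miRNAs are not compared, since probes bind with different strength. In bulk skin, more RNA of a miRNA per cell and more cells that make it cannot be told apart.

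miR-214-3p, the 3p strand of Mir214, was -0.40, 0.054, -0.76 and -0.77 in NcstnΔKC samples 1 to 4, against -1.49, -1.49, -1.90 and -1.83 in normal samples 1 to 4. The lowest NcstnΔKC value lay above the highest normal value, and NcstnΔKC 2 was the highest of its group. The means were -0.47 ± 0.39 in NcstnΔKC skin and -1.68 ± 0.22 in normal skin (SD, n = 4 each). The difference of 1.21 ± 0.22 (SE; 95% interval 0.71 to 1.71) is 2.31-fold, with an adjusted p of 0.00404 by limma. Its other strand, miR-214-5p, was detected on 0 of 8 arrays and was not tested.

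miR-199a-5p was 0.97, 1.41, 0.78 and 0.65 in NcstnΔKC samples 1 to 4, against 0.29, 0.24, -0.55 and -0.41 in normal samples 1 to 4. The groups did not overlap, and NcstnΔKC 2 was again the highest sample. The means were 0.95 ± 0.33 in NcstnΔKC skin and -0.11 ± 0.43 in normal skin (SD, n = 4 each). The difference of 1.06 ± 0.25 (SE; 95% interval 0.48 to 1.64) is 2.09-fold, with an adjusted p of 0.0120 by limma.

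miR-199a-3p is the opposite arm of the same hairpins, with RNA from Mir199b added in its signal. It was 2.88, 3.31, 2.78 and 2.72 in NcstnΔKC samples 1 to 4, against 2.49, 2.43, 1.95 and 2.07 in normal samples 1 to 4. Here too the groups were separate, with the gap between NcstnΔKC 4 and normal 1 the narrowest of the 3 strands. The means were 2.92 ± 0.26 in NcstnΔKC skin and 2.24 ± 0.26 in normal skin (SD, n = 4 each). The difference of 0.69 ± 0.19 (SE; 95% interval 0.25 to 1.13) is 1.61-fold, with an adjusted p of 0.0227 by limma. This call was lost without NcstnΔKC 2 (adjusted p 0.0513), without normal 3 (0.0614) and without normal 4 (0.0578), and also with no scaling between arrays (0.0689).

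miR-199b-5p, from the Dnm1 locus, was 0.97, 1.15, 0.67 and 0.50 in NcstnΔKC samples 1 to 4, against 1.09, 1.11, 0.79 and 0.65 in normal samples 1 to 4. The groups overlapped almost completely. The means were 0.82 ± 0.29 in NcstnΔKC skin and 0.91 ± 0.23 in normal skin (SD, n = 4 each). The difference was -0.09 ± 0.19 (SE; 95% interval -0.52 to 0.35), with an adjusted p of 0.715 by limma. The interval does not reach the differences measured for the other 3 members, but a p above the threshold does not show that the level was equal.

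**Figure D1:**
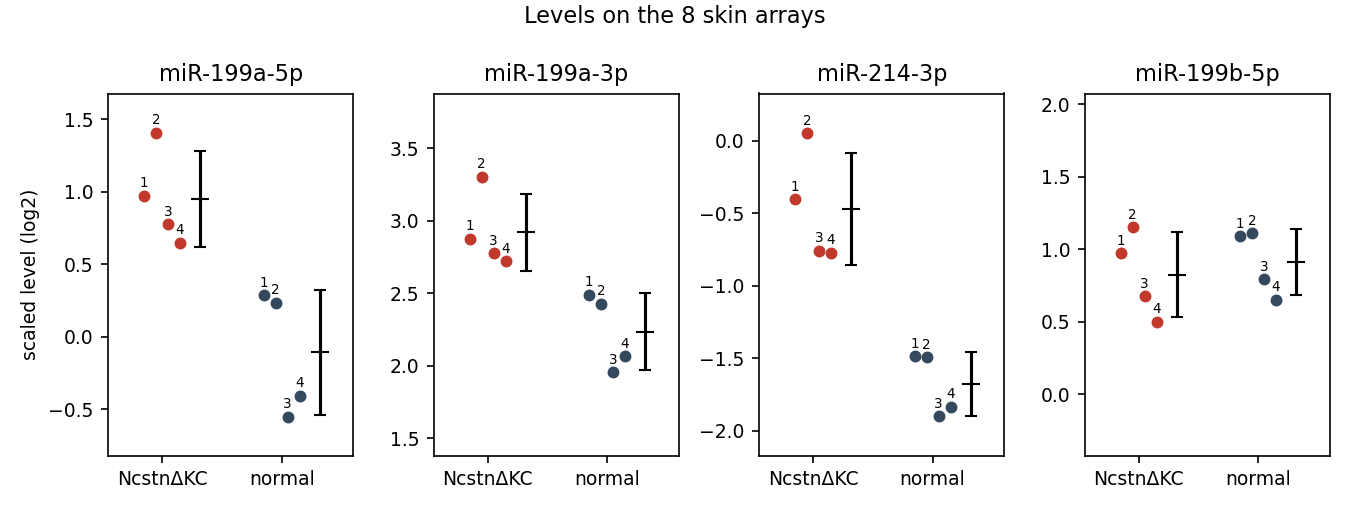
Log2 scaled intensity (vertical axis, windows of equal height) of each miRNA on each array, with NcstnΔKC left and normal right in each panel, points numbered by replicate, and bars for the mean ± SD (n = 4). The groups are separate for miR-199a-5p, miR-199a-3p and miR-214-3p and overlap for miR-199b-5p.

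Against the other miRNAs, 3 of the 4 members passed upward and 0 passed downward, where 14.9% of all 222 tested miRNAs were called higher in NcstnΔKC skin. The same 3 had groups that did not overlap, as 36.9% of all tested miRNAs did. In the order of differences from the highest to the lowest, miR-214-3p ranked 14, miR-199a-5p 19, miR-199a-3p 30 and miR-199b-5p 91 of 222. Relative to the median of all tested miRNAs, the differences were 1.44 for miR-214-3p, 1.29 for miR-199a-5p, 0.92 for miR-199a-3p and 0.15 for miR-199b-5p. Hence the sign for miR-199b-5p depends on whether it is read against the scaled arrays or against the typical miRNA.

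**Figure D2:**
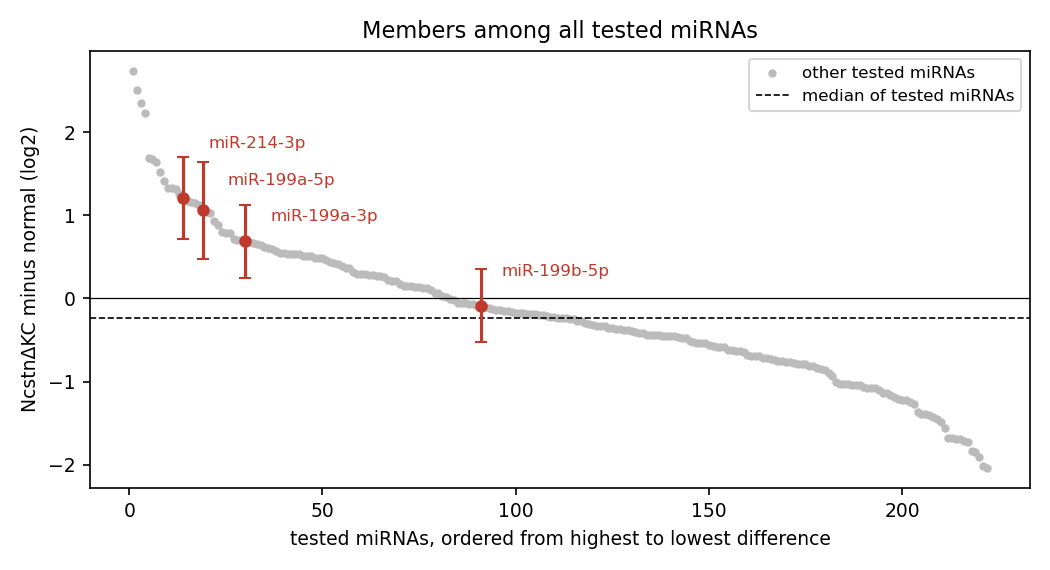
Difference NcstnΔKC minus normal (log2, vertical axis) of the 222 tested miRNAs in order of size (horizontal axis), with the 4 members marked with their 95% intervals and a dashed line at the median of -0.23. Of the marked members, 3 lie among the 30 highest differences, and miR-199b-5p lies at rank 91.

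Ratios within an array were used because any scaling of the whole array cancels in them. The log2 ratio of miR-199a-5p over miR-199b-5p was 0.13 ± 0.11 in NcstnΔKC skin and -1.02 ± 0.24 in normal skin (SD, n = 4 each). Its difference was 1.15, and the NcstnΔKC samples all lay above the normal samples. Over miR-199b-5p, the ratio of miR-214-3p differed by 1.29 and that of miR-199a-3p by 0.77. The ratio of miR-214-3p over miR-199a-3p differed by 0.52 and that of miR-199a-5p over miR-199a-3p by 0.38. The miR-199a-3p signal also holds RNA from Mir199b, so these ratios do not compare the arms of the same hairpins alone. Each of these 5 differences had p = 0.0286 by a two-sided exact permutation test, the smallest that 70 labelings allow, and 0.0343 after adjustment over the 6 pairs. The ratio of miR-214-3p over miR-199a-5p was -1.42 ± 0.08 in NcstnΔKC skin and -1.57 ± 0.21 in normal skin (SD, n = 4 each; difference 0.15, exact permutation p = 0.286). With normexp background correction in place of the scanner software's own, 0 of the 6 ratios passed after adjustment. The ratios over miR-199b-5p then still differed by 0.96 for miR-214-3p, 1.02 for miR-199a-5p and 0.79 for miR-199a-3p (adjusted p 0.0571 each, by the exact permutation test). The ratio of miR-199a-5p over miR-199a-3p differed by 0.23 and that of miR-214-3p over miR-199a-3p by 0.17. Their adjusted p-values were 0.257 and 0.411 by the exact permutation test.

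Each member was read by a pair of probes that differ by 1 base in length, and the probes were tested separately. Of the 8 probes, 6 were called higher and 0 lower, where 14.9% of the 395 tested probes were called higher. Both probes of a pair read nearly the same bases on the same arrays, and each member's value is their sum. The probe calls therefore repeat the member calls and add no separate evidence. Under the all-probe percentile 0 of the 6 passed (adjusted p 0.176 to 0.295). The miR-214-3p probes differed by 1.24 (12 bases) and 1.20 (13 bases), and the miR-199a-5p probes by 1.02 (18 bases) and 1.07 (19 bases). The miR-199a-3p probes differed by 0.72 (19 bases) and 0.66 (20 bases). For these 3 miRNAs both probes passed, and the pair differed by no more than 0.06. The miR-214-3p probe of 12 bases has 1 mismatch to miR-7018-5p, and how far miR-7018-5p binds to it was not tested. No other RefSeq mature miRNA lay within 1 mismatch of the miR-214-3p probe of 13 bases.

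The miR-199b-5p probes lay further apart. The probe of 21 bases was -1.08, -1.03, -1.44 and -1.64 in NcstnΔKC samples 1 to 4, against -0.75, -0.73, -0.97 and -1.14 in normal samples 1 to 4. Its difference was -0.40 ± 0.18 (SE; 95% interval -0.81 to 0.0097), with an adjusted p of 0.103 by limma. It was -0.19 with normexp and -0.24 with quantile normalization. The probe of 22 bases, which adds 1 base at its 3′ end, differed by 0.023 ± 0.19 (SE), with an adjusted p of 0.921 by limma, and by 0.072 with normexp and 0.063 with quantile normalization. The log2 ratio of the shorter over the longer probe was -1.74 ± 0.07 in NcstnΔKC skin and -1.32 ± 0.06 in normal skin (SD, n = 4 each), with no overlap. This difference of -0.42 had p = 0.0286 by a two-sided exact permutation test and 0.0571 adjusted over the 4 members. The comparison was chosen after the values were seen. The miR-199a-3p pair also did not overlap and had the same p-values by this test, for a difference of 0.059. The test therefore does not set miR-199b-5p apart, only the size of its gap does. The miR-199b-5p gap ranked 6 among the 163 miRNAs with at least 2 tested probes, whose median gap was 0.047. The value given above for miR-199b-5p is a sum over both probes, so it mixes these readings. Whether cross-binding of miR-199a-5p or unequal ends of the strand are part of the gap was not tested.

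**Figure D3:**
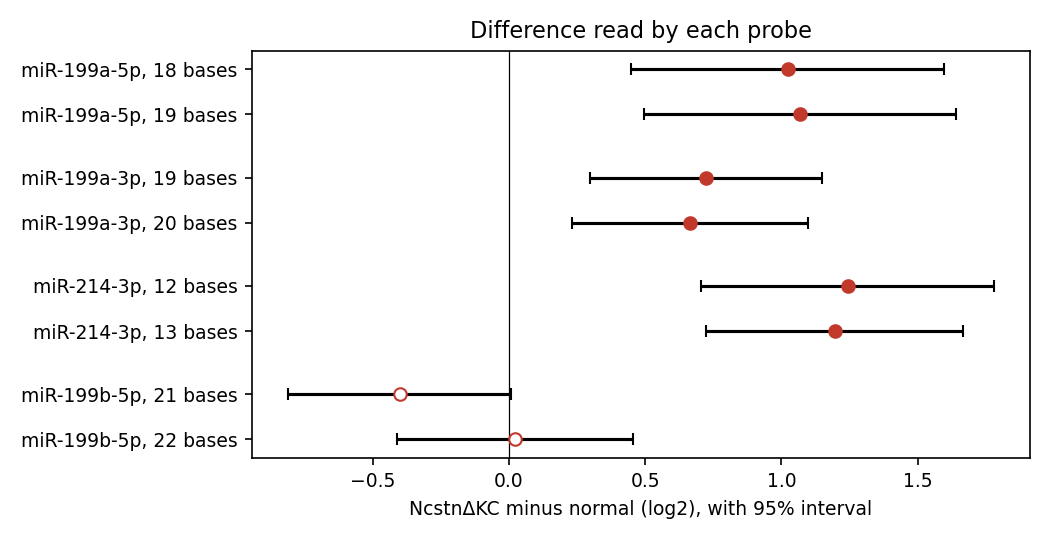
Difference NcstnΔKC minus normal (log2, with 95% interval) for each of the 8 probes, with filled points for those that passed the limma test and open points for those that did not. The 6 probes of miR-199a-5p, miR-199a-3p and miR-214-3p lie between 0.66 and 1.24, and the miR-199b-5p probes lie at -0.40 and 0.023.

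The 4 members varied together from sample to sample within a group. With each group's mean removed, Pearson's r between members ranged from 0.88 to 0.98 over the 8 arrays, against a median of -0.10 between a member and the other tested miRNAs. This is a description of arrays that share a slide and a scaling. In both groups, samples 1 and 2 lay above samples 3 and 4 for all 4 members. The same was true of 13 of the 222 tested miRNAs (5.86%), the 4 members included. Replicate number is also slide column, so position on the slide and sample cannot be told apart here. Within the 4 columns the NcstnΔKC sample exceeded the normal sample by 1.06 to 1.55 for miR-214-3p, by 0.69 to 1.33 for miR-199a-5p and by 0.39 to 0.88 for miR-199a-3p. For miR-199b-5p the differences within columns ran between -0.15 and 0.040.

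By this measure of likeness, miR-152-3p was closest to miR-199a-5p (r = 0.89) and to miR-199a-3p (r = 0.87), and miR-3472 was closest to miR-199b-5p (r = 0.93) and to miR-214-3p (r = 0.84). Next came miR-721 for miR-199a-5p (r = 0.86) and miR-199a-3p (r = 0.83), and miR-203-3p for miR-199b-5p (r = 0.85) and miR-214-3p (r = 0.79). The third places went to miR-3472 for miR-199a-5p (r = 0.84), miR-6937-5p for miR-199a-3p (r = 0.81), miR-195a-5p for miR-199b-5p (r = 0.82) and miR-181b-5p for miR-214-3p (r = 0.77). Each r named here was picked as 1 of the 3 highest among all other tested miRNAs, over only 8 arrays. Picking the highest favours large values, and their size was not tested. Likeness within groups did not go with likeness of the change. miR-152-3p fell by 0.58, miR-3472 by 1.04, miR-203-3p by 0.68, miR-195a-5p by 1.21 and miR-181b-5p by 0.85 on the log2 scale, all past the limma threshold. Under the all-probe percentile miR-152-3p (0.29), miR-203-3p (0.19) and miR-181b-5p (0.11) lay above 0, and with the scanner software's totals miR-3472 did (1.05). The NcstnΔKC means of miR-181b-5p (-4.33) and miR-3472 (-3.81) lay toward the floor of -4.97, so the sizes of their differences are uncertain. miR-3472 kept its call in 12 of 25 alternatives and miR-181b-5p in 9 of 25. Both calls were lost with quantile normalization (adjusted p 0.104 for each) and cyclic loess (0.213 for miR-3472 and 0.532 for miR-181b-5p), and both when any of several single arrays was left out. miR-721 (difference 0.37) and miR-6937-5p (-0.44) did not pass.

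A list of other miRNAs linked to fibroblasts and smooth muscle held none that was called higher. Whether they come mainly from these cells in this skin was not tested, so their levels do not measure these cells. Of 9 on this list, 7 were tested, 0 were higher and 4 were lower in NcstnΔKC skin, with a median difference of -0.53 beside -0.23 over all tested miRNAs, of which 27.9% were called lower. miR-100-5p, of the miR-99 and miR-100 family, fell by 1.07 (adjusted p 0.00402 by limma). miR-125b-5p, abundant in many skin cells, fell by 0.53 (adjusted p 0.0203), and miR-152-3p, of the miR-148 family, by 0.58 (adjusted p 0.0340). miR-145a-5p, a smooth muscle miRNA, was detected on 1 NcstnΔKC array and 4 normal arrays, and its difference was -1.14 (adjusted p 0.0450), with values at the floor. miR-143-3p, from the same cluster, differed by -0.52 and did not pass (adjusted p 0.197). The number lower depended on the scaling, with 1 after quantile normalization, 2 after cyclic loess and 6 with no scaling. With a percentile over all probes, 0 were called lower and 5 of the 7 differences, those of miR-125b-5p (0.34) and miR-152-3p (0.29) among them, were above 0. The calls for miR-125b-5p, miR-152-3p and miR-145a-5p were each lost when any of several single arrays was left out (adjusted p up to 0.0689, 0.0891 and 0.116). Of 8 miRNAs of the imprinted Dlk1-Dio3 cluster, which is active in mesenchyme, 0 were detected widely enough to be tested.

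Of 8 miRNAs linked to fibrosis and matrix, 6 were tested, 3 were higher and 0 were lower, with a median difference of 0.31, beside 14.9% of all tested miRNAs called higher. After spike-in scaling, and likewise without any scaling, 2 were higher and 2 lower, and with normexp 4 were higher and 0 lower. miR-21a-5p, which is induced in inflamed and fibrotic tissue, was 5.70-fold higher (difference 2.51 ± 0.23, SE; adjusted p 0.000477 by limma). miR-155-5p, an immune cell miRNA, was 2.39-fold higher (1.26 ± 0.22; adjusted p 0.00402). It was detected on 4 NcstnΔKC arrays and 3 normal arrays, so it entered the test only through the group where it was higher. Its normal mean of -3.92 lay toward the floor of -4.97, so the size of this difference is uncertain. With the scanner software's totals the miR-155-5p difference was -1.28. The miR-29 family represses collagen mRNAs, and 1 of its 3 tested members passed. miR-29b-3p differed by 0.55 (adjusted p 0.0291), miR-29a-3p by 0.07 and miR-29c-3p by -0.38 (adjusted p 0.138). The miR-29b-3p call was kept in 13 of 26 alternatives. It was lost without any single NcstnΔKC array and without normal 1, 2 or 4 (adjusted p up to 0.0661). miR-29c-3p was called lower with no scaling (-0.64, adjusted p 0.0342) and with spike-in scaling (-0.68, adjusted p 0.0375).

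**Figure D4:**
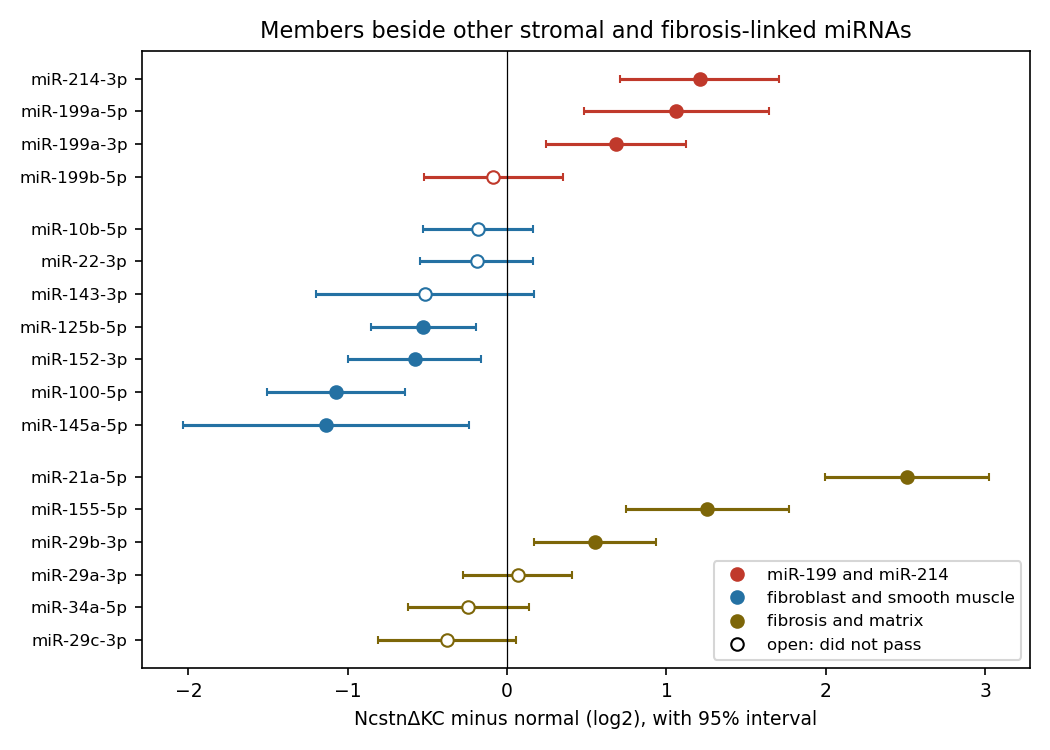
Difference NcstnΔKC minus normal (log2, with 95% interval) for the 4 members, the tested fibroblast and smooth muscle miRNAs and the tested fibrosis and matrix miRNAs, with open points for those that did not pass the limma test. All 7 fibroblast and smooth muscle miRNAs lie below 0 under the reported scaling, though 5 of them lie above 0 under the all-probe percentile, while miR-21a-5p stands highest at 2.51.

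Some markers of other cell types were called as well, and their part in the results on the members was not tested. Over all tested miRNAs, 14.9% were called higher and 27.9% lower. The summed scaled level of the 4 members was 10.2 to 15.8 in NcstnΔKC samples and 6.56 to 9.33 in normal samples. White blood cell markers summed to 2.76 to 8.49 in NcstnΔKC samples and 1.86 to 2.60 in normal samples. Of the 4 tested, 1 was higher, miR-142a-3p (difference 1.52, adjusted p 0.00792 by limma). The sum is not that of this marker alone. The highest signal was that of miR-223-3p, which did not pass (difference 1.15, adjusted p 0.0644 by limma). Mean log2 in NcstnΔKC skin was 1.72 for miR-223-3p and -0.50 for miR-142a-3p. Striated muscle markers summed to 6.41 to 38.3 in NcstnΔKC samples and 17.5 to 84.1 in normal samples. Of these markers 1 of 4 was lower, near the share of all tested miRNAs, though 0 with quantile normalization and 3 with no scaling. Adipose markers summed to 0.773 to 0.958 in NcstnΔKC samples and 1.21 to 2.001 in normal samples, with 2 of 3 lower. Endothelial miR-126a-3p did not pass, with sums for its list of 2.75 to 3.35 in NcstnΔKC samples and 2.38 to 3.08 in normal samples. Of the keratinocyte markers, 4 of 7 were lower and 0 higher, beside 27.9% of all tested miRNAs called lower. The 4 turned above 0 under the all-probe percentile, and 1 marker was higher with quantile normalization and cyclic loess and 2 with normexp and in the series matrix. Of the tested red blood cell markers, 1 of 2 was lower, miR-486a-5p, which passed in 10 of 25 alternatives and in none of these: the series matrix, normexp, cyclic loess and quantile normalization. The 1 tested pigment cell marker, miR-204-5p, was lower (difference -1.69, adjusted p 0.00182 by limma). Both miR-486a-5p and miR-204-5p were detected on 1 NcstnΔKC array and 4 normal arrays. Their NcstnΔKC means of -4.52 and -4.78 lay near the floor of -4.97, so the sizes of these differences are uncertain. Of the nerve markers, miR-338-3p was detected on all 8 arrays and did not pass (difference -0.15), and miR-9-5p and miR-124-3p were detected on none.

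The promoter of Dnm3os is shown because its transcript holds hairpins of the 3 miRNAs that were higher. How much of their signal came from this transcript was not measured. Capitals mark CANNTG, the E-box that Twist1 and many other factors recognise, which reads the same on both strands. The window holds 250 bases before and 50 after the RefSeq start (GRCm38.p6, chr1:162217373-162217672, plus strand).
Dnm3os promoter: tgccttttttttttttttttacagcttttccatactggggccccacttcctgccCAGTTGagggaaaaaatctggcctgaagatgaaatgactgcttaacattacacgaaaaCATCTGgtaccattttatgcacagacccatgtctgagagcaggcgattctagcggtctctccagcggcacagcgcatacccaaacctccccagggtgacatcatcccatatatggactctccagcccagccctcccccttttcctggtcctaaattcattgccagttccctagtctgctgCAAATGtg
It holds 3 matches, none overlapping another. At least 1 match is found in 72.3% of the 32851 RefSeq promoters of this length and at least 3 in 17.6%, so matches of this kind are common.

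Across the 26 other ways of processing the arrays, the differences of miR-214-3p, miR-199a-5p and miR-199a-3p stayed above 0. They ran between 0.90 and 2.08 for miR-214-3p, 0.76 and 1.93 for miR-199a-5p and 0.38 and 1.55 for miR-199a-3p. The upper ends come from scaling on a percentile over all probes, most of which are near background, and with this setting 0 of the 4 members passed. The number of settings that passed was 24 of 26 for miR-214-3p, 24 of 26 for miR-199a-5p, 18 of 26 for miR-199a-3p and 0 of 26 for miR-199b-5p. Relative to the median of all tested miRNAs under the same setting, the differences lay between 1.02 and 1.72 for miR-214-3p, 1.06 and 1.44 for miR-199a-5p, 0.69 and 1.02 for miR-199a-3p and -0.09 and 0.29 for miR-199b-5p.

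**Figure D5:**
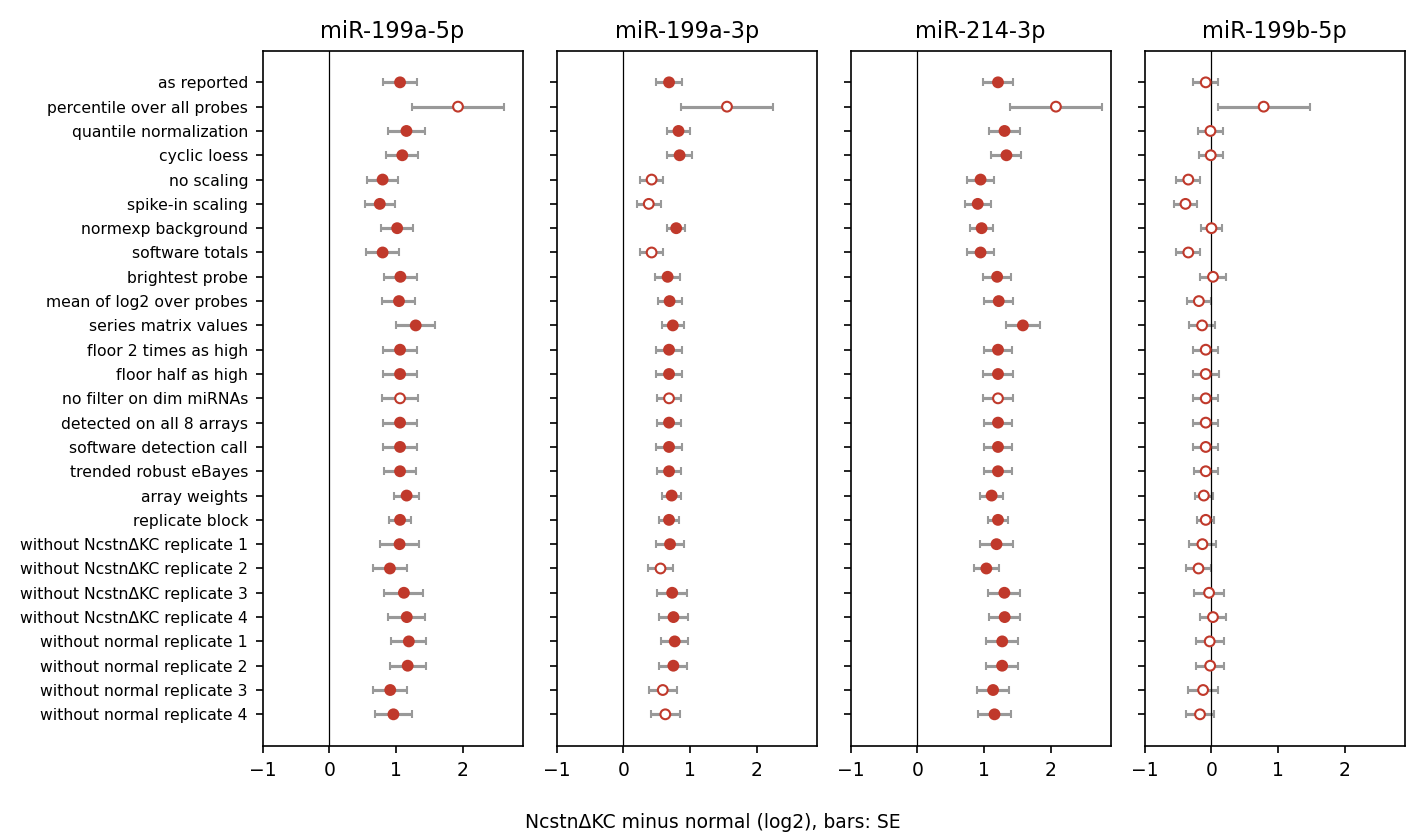
Difference NcstnΔKC minus normal (log2, ± SE) of each member under the reported setting and the 26 alternatives, with filled points where the adjusted p was under 0.05. The points of miR-214-3p, miR-199a-5p and miR-199a-3p all lie above 0, and those of miR-199b-5p lie between -0.39 and 0.78.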

How the data were processed

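Mature miRNAs were measured on 8 one-colour Agilent arrays, 4 per group. Per the file headers, the deposited intensity values were made by Agilent Feature Extraction 10.7.1.1, which subtracts a fitted background and applies no normalization between arrays. The deposited series matrix holds log2 values made by the authors; its scaling and centring are not given in the sources used here, and it served as an alternative.

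Control and outlier spots were left out, and no spot was saturated. Detection of a probe required 50% or more of its spots to be flagged as well above background. Mean intensities per probe were scaled on each array to the 75th percentile of the 301 probes detected on all arrays, summed per miRNA, floored at a scaled value of 0.0318 (log2 -4.97) and converted to log2. The 222 miRNAs detected on all 4 arrays of a group were tested with limma 3.58.1 in R 4.3.3 (lmFit, eBayes), with Benjamini-Hochberg adjustment over all 222 and a threshold of 0.05, two-sided. The number of arrays limits the precision. Ratios were tested by exact permutation over the 70 labelings. The fit was tested on simulated data.

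The members, the lists and the tests were chosen with earlier results of these data known. Named miRNAs are the 4 members, their relatives, the 3 miRNAs most alike to each member, up to 4 of each list by smallest p, and the cell type markers. Beyond this rule, miR-143-3p is named as the cluster partner of miR-145a-5p and miR-29a-3p beside its family. The sets of markers are given whether or not they were called. Of the white blood cell markers, miR-142a-3p is named because it was called, and miR-223-3p because its signal was the highest. Alternatives were other scalings, background corrections, summaries, floors, filters, fits and each array left out.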

Additional observations from a re-analysis of the deposited data

How the results depend on the processing

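Scaling on a percentile over all probes raised the median of all tested miRNAs to 0.64 and gave 1.93 for miR-199a-5p (adjusted p 0.0695), 1.55 for miR-199a-3p (0.183), 0.78 for miR-199b-5p and 2.08 for miR-214-3p (0.0501), so 0 members passed. It also turned the 21-base miR-199b-5p probe to 0.47, miR-125b-5p to 0.34, miR-152-3p to 0.29, miR-29c-3p to 0.49, miR-6937-5p to 0.43, miR-203-3p to 0.19 and miR-181b-5p to 0.11. With no filter on dim miRNAs, 1881 were tested and 0 members passed, at 1.06 for miR-199a-5p (0.202), 0.69 for miR-199a-3p (0.242) and 1.21 for miR-214-3p (0.0801). miR-199a-3p also lost its call with no scaling (0.42, adjusted p 0.0689), spike-in scaling (0.38, 0.0970) and the software's totals (0.42, 0.0885). The totals turned miR-155-5p to -1.28 and miR-3472 to 1.05. The brightest probe gave 0.023 for miR-199b-5p, and normexp turned the ratio of miR-214-3p over miR-199a-5p to -0.055. With 1 array left out, differences ran between 0.56 and 0.77 for miR-199a-3p, -0.19 and 0.022 for miR-199b-5p and -0.080 and 0.87 for miR-721. The ratios could not pass with 1 array left out. The all-probe percentile itself was 0.83 to 6.54 intensity units, where the percentile of the reported scaling was 922 to 1314. It shifted the members together. Relative to the median of all tested miRNAs, they stayed at 1.29 for miR-199a-5p, 0.92 for miR-199a-3p, 0.15 for miR-199b-5p and 1.44 for miR-214-3p. The cause of the other changes was not tested. Without the filter more miRNAs were adjusted for, and the limma p-values before adjustment were also higher for the called members. They were 0.00764 for miR-199a-5p, 0.0101 for miR-199a-3p and 0.00153 for miR-214-3p, against 0.00276, 0.00674 and 0.000446 as reported.

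Over all 222 tested miRNAs, 33 were higher and 62 lower as reported, 36 and 32 with quantile normalization, 41 and 30 with cyclic loess, 24 and 101 without scaling, 18 and 91 after spike-in scaling, 38 and 28 with normexp, 36 and 36 in the series matrix, 16 and 63 with the totals, 52 and 97 with array weights, 11 and 0 with the all-probe percentile, and 8 and 11 of 1881 with no filter. With the replicate block the differences were 1.06, 0.69, -0.09 and 1.21 for miR-199a-5p, miR-199a-3p, miR-199b-5p and miR-214-3p (adjusted p 0.0105, 0.0286, 0.598 and 0.0105), with 28 higher and 43 lower. The block ended the calls of miR-125b-5p (0.0541), miR-145a-5p (0.123) and miR-29b-3p (0.0788). The numbers were not taken to pair the samples, since over all tested miRNAs deviations of same-numbered samples correlated at -0.44, 0.20, -0.26 and -0.23.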
